A study of Mus musculus with 8 samples.

Results

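In crypt cells of Rb-deficient mouse intestine, 943 of 31397 Myc binding sites lay within 1 kb of the start of a protein-coding gene and had no E2f3 site within 250 bp. They are called E2f3-free Myc promoter sites here. Over all 8 libraries of the study the lists held 284230 sites. The starts came from the GENCODE M1 annotation on the mouse build mm9, and an E2f3 site of any of the 4 E2f3 libraries removed a Myc site. The sites were thus chosen by measured values, the called positions of Myc and E2f3. That choice fixed the presence of Myc, the closeness to a start and the absence of E2f3, and these are descriptions and not findings. The choice did not use the DNA sequence under the sites, their presence in the other Myc libraries, or which genes they lay at. It did use E2f3 sites of control crypt and of both villus groups, so sharing with those groups is not independent of it.

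The sites were mapped by ChIP-exo-seq, in which an exonuclease trims immunoprecipitated DNA up to the crosslinked protein. The Rb-deficient mice had lost Rb through Ah-cre, an inducible Cre recombinase acting in the intestine, and the control mice were labelled wild type. All mice were of mixed background, from C57BL/6, 129 and FVB/N. Crypt cells and villus cells of each genotype were precipitated with Santa Cruz antibodies against E2f3 (sc-878 X) and against Myc (sc-764 X). Each of the 8 combinations was 1 library, so no difference between libraries has a replicate check and no test between them was made. Neither the ages nor the numbers of mice are known here, and site lists do not measure Rb1, so the genotype labels were not checked. No input library was used here, and the sequencing depth is unknown. Intervals in brackets are exact 95% binomial (Clopper-Pearson) intervals of counting error only, and neighbouring sites are not independent of each other. The Myc lists held 31397 sites in Rb-deficient crypt and 159181 in control crypt, and in villus 4119 in Rb-deficient and 7223 in control cells. The E2f3 lists held 27396 and 14843 sites in Rb-deficient crypt and villus, and 32666 and 7405 in control crypt and villus.

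Myc is a transcription factor that binds DNA as a pair with its partner Max, and its preferred sequence is the palindromic E-box CACGTG. Max also pairs with the Mxd proteins and Mga, which occupy the same sequence. Genes for ribosome assembly, translation, nucleotide synthesis and polyamine synthesis are long known as Myc targets. E2f3 belongs to the E2F family, which Rb restrains, and its best known targets are genes of DNA replication and the cell cycle. In the intestine Myc acts downstream of Wnt signals in the dividing cells of the crypt.

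The sequences at some of the sites are given on the strand of the nearest gene and in build mm9. The first 10 are 30-base stretches around the E-box at the highest-scored site with an E-box of 10 gene groups, and the capitals mark the E-box.
Ncl (nucleolin, nucleolar ribosome assembly), chr1:88255393-88255422, minus strand: cgcctccccgcgCACGTGctctggtgcgcg
Ears2 (mitochondrial glutamyl-tRNA synthetase), chr7:129210501-129210530, minus strand: ctggccgagccgCACGTGgtggccctcggg
Lrsam1 and Rpl12 (ubiquitin ligase and ribosomal protein, divergent genes), chr2:32817415-32817444, minus strand: tcccctcttacaCACGTGgcagccaaggcc
Mrpl54 (mitochondrial ribosomal protein), chr10:80729643-80729672, minus strand: cacggaagtctgCACGTGcgagcggccggc
Odc1 (ornithine decarboxylase, polyamine synthesis), chr12:17552032-17552061, plus strand: gccggcaggggaCACGTGgcccgggaccgg
Gtf3c6 (subunit of transcription factor IIIC), chr10:39977557-39977586, minus strand: gtgtcgagtctcCACGTGggacccacttac
Eif4b (translation initiation factor), chr15:101905103-101905132, plus strand: ccagggtgctccCACGTGttaggtgctgta
Atic (purine synthesis), chr1:71603776-71603805, plus strand: tgcctgcctacgCACGTGgcctgtccgtcc
Atp5g1 (ATP synthase subunit), chr11:95936806-95936835, minus strand: cgtgggttgtgcCACGTGgagcaccatttg
Pgk1 (glycolysis), chrX:103383388-103383417, plus strand: aaggctcccacgCACGTGgcacatgtgggt

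At 5 further sites the capitals mark CACGCG or its reverse complement CGCGTG, a variant that differs from the E-box in 1 base. They are among the highest-scored sites that held this variant within 50 bp and no E-box within 250 bp, and they were chosen after their values were seen. The marked letters need not cover the called base, and at Abhd11 the called base, 135485728, is outside the stretch.
Tbrg4 (mitochondrial RNA metabolism), chr11:6525799-6525828, minus strand: gctgcgattgcgCACGCGctcctcggcccg
Ppp2r3c (phosphatase regulatory subunit), chr12:56403967-56403996, minus strand: acctgtggcgcgCACGCGctaaatgcccaa
Srsf6 (splicing factor), chr2:162757580-162757609, plus strand: aggccgcggcgcCGCGTGgcagggcctcta
Abhd11 (mitochondrial hydrolase), chr5:135485744-135485773, plus strand: tggtccacttcgCACGCGgcttagctggcc
Wdr41 (partner of C9orf72), chr13:95746306-95746335, plus strand: ccgcgcggcgccCACGCGcgtgctcactgg

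The Ncl gene held the densest group of E-boxes among the E2f3-free sites, with 5 E-boxes in 209 bp of an intron. The stretch from the first to the last, with 10 bases added at each end, is printed with the E-boxes in capitals because 2 of the 943 sites lay in it, 202 bp apart.
Ncl intron, chr1:88255192-88255420, minus strand: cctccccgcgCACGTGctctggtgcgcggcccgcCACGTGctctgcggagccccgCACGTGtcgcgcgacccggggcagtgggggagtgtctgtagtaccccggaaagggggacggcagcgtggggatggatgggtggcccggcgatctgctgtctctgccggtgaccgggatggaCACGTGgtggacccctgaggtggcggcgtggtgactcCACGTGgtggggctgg
The site at the E-box nearest the Ncl start had a score of 90.01 and the site at the farthest one a score of 47.25.

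The 943 sites were 3.0% of the Rb-deficient crypt Myc list and 50.9% of its 1852 promoter sites, the other 909 promoter sites having E2f3. They lay at 988 genes, which is 4.44% of 22232 protein-coding genes, whereas 8.28% had a promoter site of this Myc library of any kind. Of the sites, 840 lay near the start of 1 gene and 103 (10.9%) near the starts of 2 or more genes, among them the divergent pair Lrsam1 and Rpl12. There were 54 genes with 2 or more such sites. Nop56, a core protein of the complexes that modify ribosomal RNA, had 3, as did Atf6, Ccdc116 and Ydjc. There were 20 sites on chromosome 18, and 1 lay on mitochondrial DNA at mt-Nd1 and mt-Nd2. The nearest E2f3 site was a median of 8566 bp away, 225 sites had one at 251 to 1000 bp, and 436 had none within 10 kb. Of the 988 genes, 312 (31.6%) had an E2f3 promoter site elsewhere around their starts, beside 24.1% of all protein-coding genes, and 676 had none in any library. At 71 of the genes a second Myc promoter site did have E2f3.

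The authors' score ranks the sites of a list, and what it measures is not stated. E2f3-free promoter sites had a median score of 7.5 (quartiles 4.34 and 13.3), against 11.6 at promoter sites with E2f3 and 9.67 over the whole list. The highest, at Rpl32, had 113.84 and rank 225, and 349 of the 943 sites were at or above the median of the list. The 3 sites farthest from a start, at 996 to 1000 bp from Gm9961, Ehf and AI464131, had scores of 4.62 to 7.76. The nearest 3 E2f3-free sites beyond 1 kb, at Pabpc1, Fam71f1 and Mbd3, had 2.90 to 23.4. The sites of Phf17 and Rdh13 lay 251 bp and that of Ywhaq 253 bp from E2f3, with scores of 6.59 to 14.9. Those of Zmym6 and 2610528E23Rik, 247 bp from E2f3, and of 1700029J07Rik, 245 bp from it, were left out and had 3.77 to 10.02.

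The E-box was far more frequent at E2f3-free Myc promoter sites than at Myc promoter sites with E2f3. It lay within 50 bp of 429 of 943 sites, or 45.5% (42.3% to 48.7%), against 147 of 909, or 16.2% (13.8% to 18.7%), with E2f3. Outside promoters it lay at 10.5% of Myc sites without E2f3 and at 2.15% of those with E2f3. Windows 2 kb to each side of the E2f3-free promoter sites held it in 1.17%, and 2.93% of all 45974 start sites had one within 50 bp. The sites with E2f3 thus held the E-box less often, and among them the share was lower at sites found in more E2f3 libraries. It was 45.5% with E2f3 in 0 libraries, 20.8% (16.3% to 25.9%) with 1, 16.2% with 2, 15.5% with 3 and 8.33% (4.51% to 13.8%) with all 4, and each of these intervals from 1 library on overlapped that of the next.

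**Figure D1:**
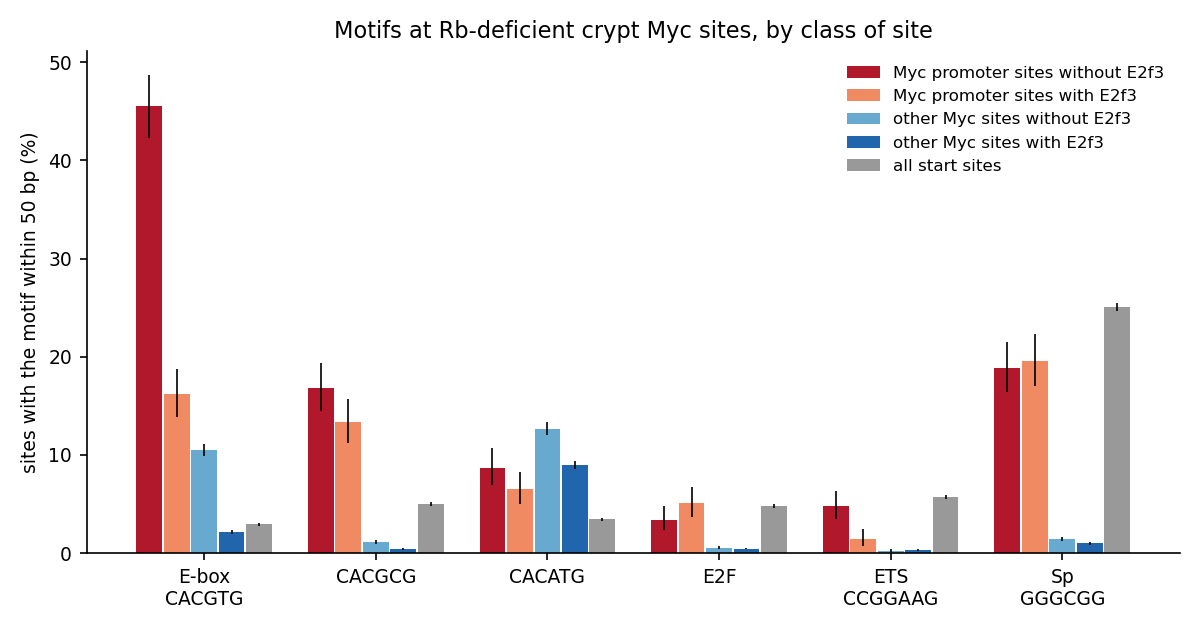
Share of Rb-deficient crypt Myc sites with each motif on either strand within 50 bp, for promoter and other sites without and with E2f3 and for windows centred on all start sites; bars are percentages and lines exact 95% intervals of counting error. The E-box stands at 45.5% of E2f3-free promoter sites and 16.2% of promoter sites with E2f3, while CACGCG, the E2F motif and the Sp motif GGGCGG differ less. The ETS motif CCGGAAG stands at 4.77% and 1.43%.

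The difference was also present among sites of like score. Promoter sites were put into score quartiles over both kinds together, with bounds at 4.99, 9.09 and 17.4. The E-box share of E2f3-free sites was 40.6%, 47.1%, 44.7% and 52.4%, lowest to highest quartile. With E2f3 it was 24.7%, 15.96%, 17.7% and 10.1%. The intervals of both kinds did not overlap in any of the quartiles. In the highest quartile they were 44.5% to 60.2% for E2f3-free sites and 6.92% to 14.1% with E2f3.

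Most of the E-boxes were at the called base itself. Among the 429 E2f3-free sites with an E-box within 50 bp, the site lay at its centre in 410, or 95.6%, against 140 of 147, or 95.2%, with E2f3. The calling program may place a site on a motif, and how far it did so is not given, so the share within 50 bp is tied to the placement. At 51 to 250 bp, away from the called base, the E-box was found beside 12.5% (10.5% to 14.8%) of E2f3-free sites and 9.13% (7.34% to 11.2%) of sites with E2f3. All start sites gave 7.61% at that distance and the windows 2 kb away 4.24%. The difference of 29.3 percentage points within 50 bp was 3.38 points there, and those intervals overlapped. Placement could also take E-boxes out of this range, which was not tested. Of the 429 sites, 83 (19.3%) had 2 or more E-boxes within 250 bp.

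**Figure D2:**
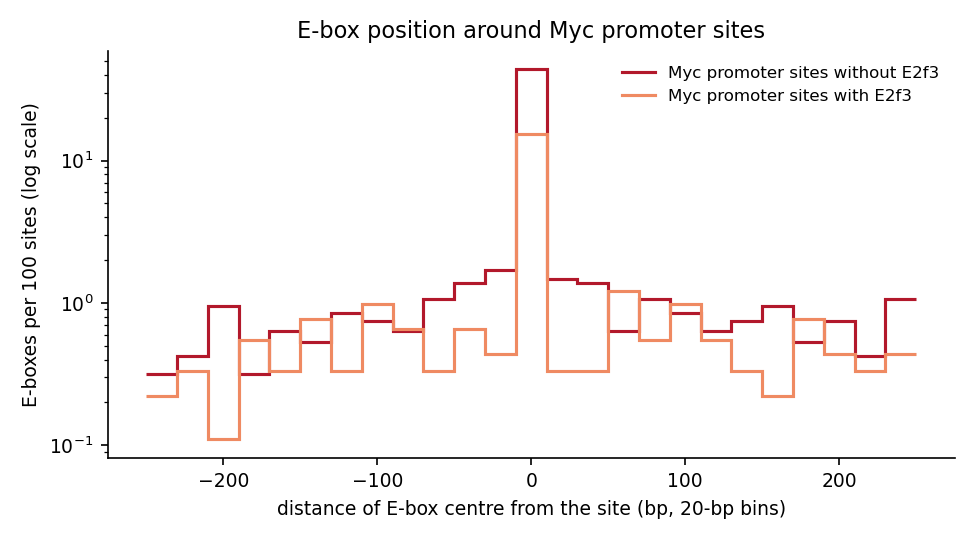
Number of E-boxes per 100 sites (log scale) in 20-bp bins of the distance between the E-box centre and the site, for Myc promoter sites without and with E2f3. The central bin holds 43.9 per 100 E2f3-free sites and 15.4 per 100 sites with E2f3, and bins beyond it hold at most 1.70.

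The variant CACGCG was found at 16.9% (14.5% to 19.4%) of E2f3-free sites, against 13.3% (11.2% to 15.7%) with E2f3, beside 5.05% of start sites. Those intervals overlapped. Either CACGTG or CACGCG was present at 58.1% of E2f3-free sites and 27.4% of sites with E2f3, beside 7.82% of start sites. The variant CACGAG was present at 6.89% and 4.18%, CACATG at 8.70% and 6.49%, and CAGCTG at 4.45% and 3.41%, beside 2.55%, 3.44% and 6.75% of start sites. The E2F motif, searched as TTCCCGC with its variants TTCGCGC and, in the same way, TTGCCGC as well as TTGGCGC, was present at 3.39% (2.33% to 4.76%) of E2f3-free sites and 5.06% (3.73% to 6.69%) with E2f3, beside 4.81% of start sites. The ETS motif CCGGAAG was present at 4.77% (3.50% to 6.33%) and 1.43% (0.764% to 2.43%), beside 5.70% of start sites, and those intervals did not overlap. The Sp motif GGGCGG was present at 18.9% and 19.6%, beside 25.1%. Motifs were searched on both strands and counted separately. Some share letters, as CACGCG does with the E2F motif TTCGCGC on the other strand or with a neighbouring E-box.

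The bases beside the E-box also differed from those at other promoter E-boxes. Only E-boxes at the called base were counted at the sites, so their flanks are tied to the placement too. The surroundings also differed. The median ratio of observed to expected CpG within 250 bp was 0.725 at E2f3-free sites with the E-box and 0.580 at all start sites. How far either bears on the flanks was not tested. Directly 5′ of CACGTG, reading both strands of the 410 E-boxes at E2f3-free sites, T stood at 33 of 820 sides, or 4.02% (2.79% to 5.61%). It stood at 8.21% (5.28% to 12.1%) at sites with E2f3 and at 28.9% (27.9% to 29.99%) at all 3485 E-boxes within 250 bp of a start. C stood at 48.5% of sides and G at 36.6%, beside 32.0% and 22.5% at all promoter E-boxes. The pair GC was the most frequent at E2f3-free sites with 17.2%, beside 8.65%, and GT had 1.46%, beside 14.0%. None of the printed E-boxes, at Ncl, Ears2, Odc1 and the other genes, has T directly 5′ of CACGTG on either strand.

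Seen from the E-boxes, 226 of the 3485 near starts, or 6.49%, had an E2f3-free Myc promoter site within 50 bp. With no flanking T the share was 10.7% (9.34% to 12.2%), with T on 1 side 1.85% (1.19% to 2.74%) and with T on both sides 1.67% (0.616% to 3.602%). Rb-deficient crypt Myc sites of any kind gave 15.04%, 3.39% and 1.95% in the same order. The control crypt Myc list gave 3.39%, 1.16% and 0.836%, although it was the longer list. The Rb-deficient villus list had a site at 2 of these E-boxes and the control villus list at 0 of 3485. The shares by flanking T are tied to the placement of sites in the same way.

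E2f3-free sites were found in control crypt Myc less often than promoter sites with E2f3, and hardly at all in villus Myc. A control crypt Myc site lay within 250 bp of 332 of 943, or 35.2% (32.2% to 38.3%), against 70.6% (67.5% to 73.6%) of promoter sites with E2f3 and 89.4% of the whole list. By the score quartiles used above, lowest to highest, these shares were 31.7%, 33.0%, 39.4% and 39.8% for E2f3-free sites. With E2f3 they were 44.7%, 66.5%, 73.6% and 85.5%. The intervals overlapped in the lowest quartile only, where they were 26.5% to 37.4% and 37.1% to 52.5%. An Rb-deficient villus Myc site lay near 3 of 943, or 0.318% (0.0657% to 0.927%), against 10.8% with E2f3 and 12.2% of the list. A control villus Myc site lay near 1 of 943, or 0.106%, against 16.8% with E2f3 and 20.9% of the list. No E2f3-free site was shared by all 3, which allows a share of up to 0.390%, and 611 (64.8%) were in none of them. Outside promoters, control crypt Myc lay near 78.3% of sites without E2f3 and 97.8% of sites with it. The lists held 4119 to 159181 sites and their depths are unknown, so an absent site is a site not called. The rule also removed sites with E2f3 in control crypt or in either villus library, so these shares are not independent of the choice. Excluding by Rb-deficient crypt E2f3 alone gave control crypt Myc near 41.6% of E2f3-free sites and 69.04% of sites with E2f3. Rb-deficient and control villus Myc then lay near 1.08% and 1.35% of E2f3-free sites. With every Myc list kept to its 4119 highest-scored sites, 66 E2f3-free promoter sites were left. Control crypt Myc then lay near 0 of the 66, which allows a share of up to 5.44%, against 53.02% of 149 sites with E2f3.

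**Figure D3:**
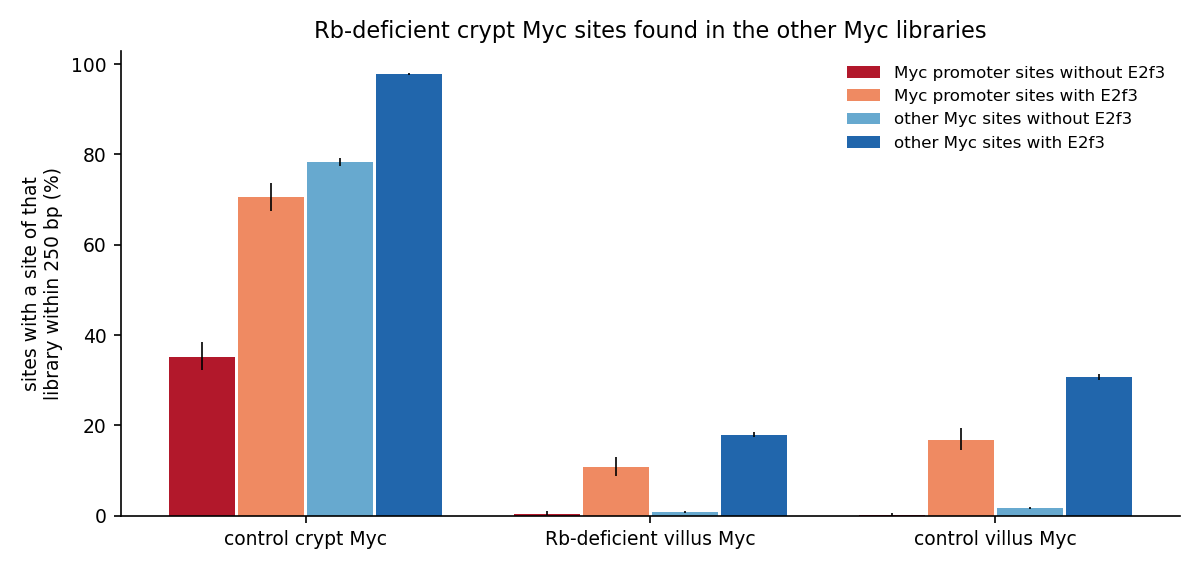
Share of Rb-deficient crypt Myc sites with a site of each other Myc library within 250 bp, for promoter and other sites without and with E2f3; bars are percentages and lines exact 95% intervals. E2f3-free promoter sites have the lowest share with control crypt Myc, 35.2%, and 0.318% and 0.106% with the villus lists.

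The few sites shared with villus were at 3 genes. Both Ncl sites lay near the same Rb-deficient villus site, which had a score of 4.83, and both had control crypt Myc sites within 14 bp, with scores of 50.13 and 28.81. The other site shared with Rb-deficient villus lay in an intron of Cryba4, a lens crystallin gene, with 22.62 in Rb-deficient crypt, 2.69 in Rb-deficient villus and 74.22 in control crypt. St8sia3, which encodes a sialyltransferase, had 8.12 in Rb-deficient crypt, 10.71 in control crypt and 2.56 in control villus. Scores of different lists are not on a known common scale. The Cryba4 and St8sia3 sites had no E-box within 250 bp and CpG ratios of 0.120 and 0.104, the observed over the expected number of CpG within 250 bp of the site.

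Sites shared with control crypt had the E-box less often. Of the E2f3-free sites without a control crypt Myc site, 56.3% (52.3% to 60.3%) had the E-box, against 25.6% (21.0% to 30.7%) of those with one. At promoter sites with E2f3 the shares were 38.2% (32.4% to 44.3%) without and 7.01% (5.16% to 9.27%) with control crypt Myc. Among sites without control crypt Myc the E-box share was therefore 18.1 percentage points higher where E2f3 was absent, and the intervals did not overlap.

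Sorted by sequence, 429 E2f3-free sites had the E-box, 119 had CACGCG only and 395 had neither. Control crypt Myc lay near 19.8% (16.1% to 23.9%), 15.1% (9.22% to 22.9%) and 58.0% (52.9% to 62.9%) of them in that order. The sites with neither also lay in sequence with fewer CpG. Their median CpG ratio was 0.464, against 0.725 with the E-box and 0.836 with CACGCG only. Within the sites with neither, control crypt Myc lay near 41.6% of the 166 with a CpG ratio of 0.6 or more and near 69.9% of the 229 under it. With the E-box the shares were 20.9% and 17.4%. Over all E2f3-free sites the median CpG ratio was 0.687, against 0.571 at promoter sites with E2f3 and 0.580 at all start sites.

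The sites were concentrated at the starts. The median distance was 266 bp, against 333 bp at promoter sites with E2f3, and 27.4% (24.5% to 30.3%) lay within 100 bp, against 22.7% (19.98% to 25.5%). Upstream of the nearest start lay 53.02% (49.8% to 56.3%), against 56.5% with E2f3. By annotation 37.8% lay in introns, 14.7% in 5′ UTRs, 7.64% in coding exons and 0.742% in 3′ UTRs, and 39.1% outside protein-coding transcripts. Sites with CACGCG only were nearest to starts, with a median of 192 bp, against 260 bp with the E-box and 321 bp with neither.

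**Figure D4:**
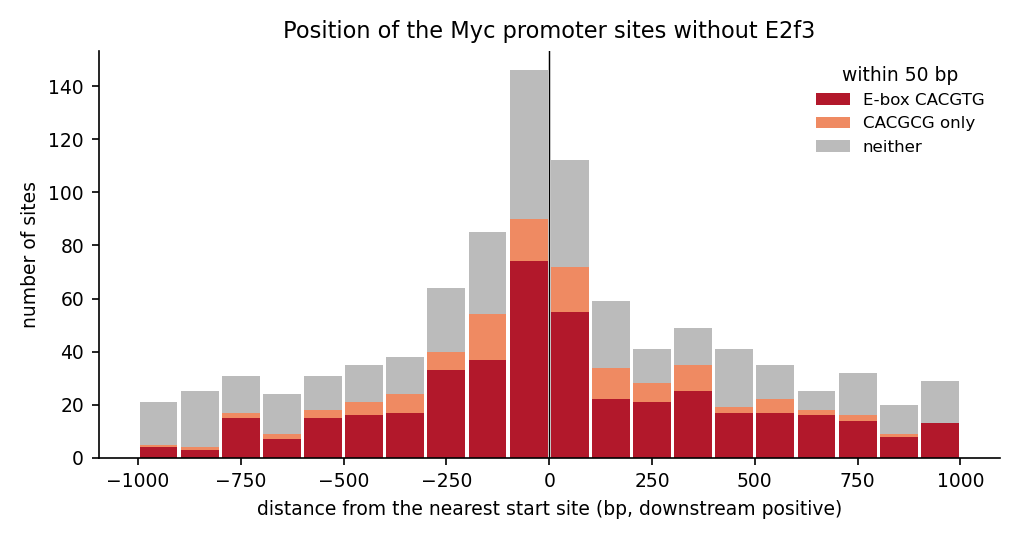
Number of E2f3-free Myc promoter sites in 100-bp bins of the distance from the nearest start site (bp, downstream positive), stacked by the sequence within 50 bp. The sites are most numerous beside the start, and 258 of 943 lie within 100 bp of it.

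The 15 highest-scored sites lay at genes of varied function. The site of Rpl32, a ribosomal protein of the large subunit, lay in an intron 171 bp downstream of the start with a score of 113.84, and control crypt had a site 2 bp away with 63.67. Pemt, which makes phosphatidylcholine by methylation, followed with 111.11 in its 5′ UTR, and Rpl10a, another ribosomal protein, with 98.9 in an intron. Neither had a control crypt site within 250 bp. Ncl had 90.01 and Tbrg4 had 85.49. Wipf2, which binds the actin regulator WASP, had 80.72, and Slc19a1, the reduced folate carrier, had 78.35. Supv3l1, a mitochondrial RNA helicase, had 73.01. The next, with 70.32, lay 138 bp downstream of the start of Rg9mtd2, a tRNA methyltransferase gene, and 267 bp upstream of that of Mttp. Riok2, a kinase of small ribosomal subunit maturation, had 69.95. The site between Arsg, a lysosomal sulfatase gene, and Slc16a6, a transporter gene, had 68.84, and Larp1, a regulator of the translation of ribosomal protein mRNAs, had 68.83. The site of Ppp2r3c and 1110008L16Rik had 66.87, Fam108c had 63.04, and the site of Lrsam1 and Rpl12 had 62.04.

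High scores also occurred without the E-box. Of the sites just named, those of Rpl32, Rpl10a, Tbrg4 and Ppp2r3c had no E-box within 250 bp, and neither had that of Srsf6 with 57.54. Tbrg4, Ppp2r3c and Srsf6 had CACGCG within 50 bp, and Rpl32 and Rpl10a had neither sequence there. These Rpl32 and Rpl10a sites had CpG ratios of 0.964 and 1.06.

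Genes of ribosome assembly had the highest share of the 26 gene lists examined, with an interval that overlapped those of several other lists. Of 94 genes of nucleolar ribosome biogenesis, 25 had an E2f3-free Myc promoter site, or 26.6% (18.01% to 36.7%), beside 4.44% of all genes. A promoter site of this Myc library of any kind was present at 32 of the 94, beside 8.28% of all genes, and one with E2f3 at 9. The high share was thus not particular to E2f3-free sites. The best E2f3-free site had the E-box in 18 of the 25, and lay downstream of the gene's own start in 22, beside 46.2% and 43.3% over all 988 genes. The median best score was 15.7, beside 7.63 over all of them. After Ncl and Riok2 the highest were Npm1, the nucleolar phosphoprotein nucleophosmin, with 42.38, and Pes1, a large-subunit assembly factor, with 30.92. Sdad1 had 26.21 and Dkc1, the pseudouridine synthase dyskerin, had 25.51. Fbl, the methyltransferase fibrillarin, had 8.98, Nop58 had 15.85 and Nop56 had 25.47. These are among the core proteins of the box C/D complexes. Control crypt Myc lay near the best sites of 6 of the 25 genes. Of the 94 genes, 19 had a site without control crypt Myc, beside 2.95% of all genes.

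Cytosolic ribosomal protein genes were nearly as often represented but differed in sequence. Of 84 genes, 20 had an E2f3-free site, or 23.8% (15.2% to 34.4%), and the median best score was 19.1. A Myc promoter site of any kind was present at 24 of the 84, beside 8.28% of all genes, and one with E2f3 at 6. Only 4 of the 20 had the E-box at their best site, namely Rpl12, Rpl24, Rpl30 and Rpsa, and 3 more, Rpl23a, Rpl27 and Rpl28, had CACGCG. The best sites lay downstream of the start in 15 of 20, in an intron in 13 of 20, and at a median of 142.5 bp downstream. Within the list the highest after Rpl32, Rpl10a and Rpl12 were Rpl23a with 46.15, Rps3a with 39.37 and Rpl5 with 35.84. Control crypt Myc lay near the best sites of 9 of the 20. Ribosomal protein genes have many near-identical processed copies, and how reads that fit several places were treated is not given.

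**Figure D5:**
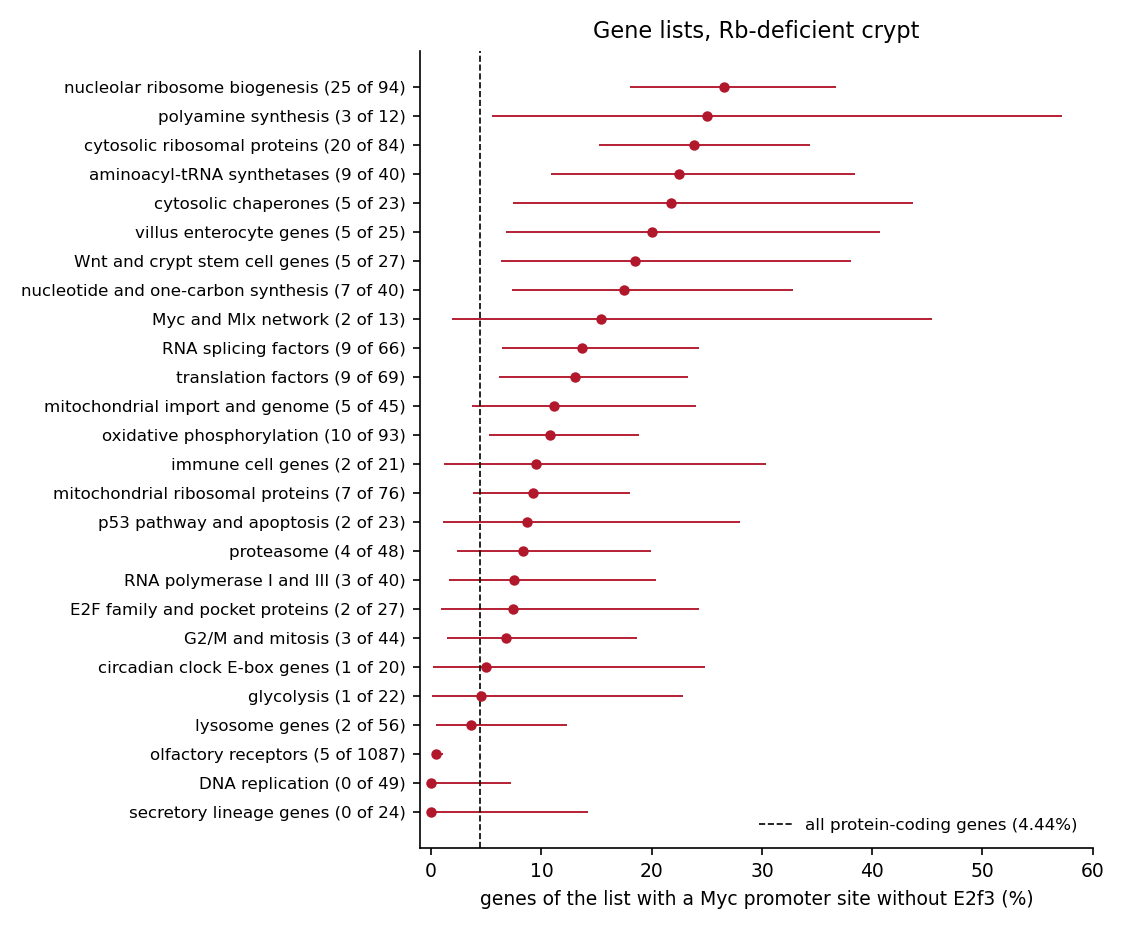
Share of the genes of each list with an E2f3-free Myc promoter site in Rb-deficient crypt (points, with exact 95% intervals of counting error), with the number of genes in brackets; the dashed line is the share of all protein-coding genes, 4.44%. Nucleolar ribosome biogenesis stands at 26.6%, cytosolic ribosomal proteins at 23.8% and olfactory receptors at 0.460%.

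Counts for further genes of translation are read beside the same 4.44%, which the intervals for mitochondrial ribosomal proteins and for RNA polymerases I and III hold. Of 40 aminoacyl-tRNA synthetase genes, 9 had one (22.5%, 10.8% to 38.5%), led by Ears2 with 46.74, Vars with 45.49, Tars with 38.02 and Aimp2, a scaffold of the synthetase complex, with 25.23. Tarsl2 had 18.75 and Iars2 had 12.57. Of 69 translation factors, 9 had one (13.0%, 6.14% to 23.3%), led by Eif4b with 22.82, Eif5 with 18, Eef1b2 with 13.72, Eif6 with 11.55, Eif4g3 with 11.1 and Eif5a with 9.16. That count was 5 among sites at or above the list's median score and 0 with Myc lists of equal length. Of 76 mitochondrial ribosomal protein genes, 7 had one (9.21%, 3.78% to 18.1%), and Mrpl54 with 31.6 and Mrpl47 with 16.68 led them. The other 5 genes, Mrpl40, Mrpl18, Mrpl52, Mrpl35 and Mrps28, had 3.22 to 6.8. Of 40 genes of RNA polymerases I and III, 3 had one (7.5%, 1.57% to 20.4%), namely Gtf3c6 with 23.28, Polr1b with 22.3 and Polr1d with 3. Any Myc promoter site was present at 14 synthetase, 12 translation factor, 13 mitochondrial ribosomal protein and 9 polymerase genes, beside 8.28% of all genes. Myc promoter sites with E2f3 were present at 6, 4, 8 and 6 genes in that order. Myc at these lists was thus not confined to E2f3-free sites.

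In the small lists of nucleotide, polyamine and glycolysis genes most best sites had the E-box, beside 46.2% over all 988 genes. The counts are read beside the 4.44% of all genes, which the interval for glycolysis holds. Of 40 genes of nucleotide and one-carbon synthesis, 7 had a site (17.5%, 7.34% to 32.8%), and 6 of these had the E-box. Atic, which completes purine synthesis, had 20.8. Uck2, a uridine-cytidine kinase, had 8.15 and was the 1 without E-box. Nme2 had 8.05, Gart, another purine enzyme, had 6.27, Dhodh of pyrimidine synthesis had 5.55, Impdh2 of guanine nucleotide synthesis had 3.23 and mitochondrial Mthfd2 had 3.16. Of 12 polyamine genes, 3 had a site (25%, 5.49% to 57.2%), all with the E-box. Odc1, the rate-limiting enzyme, had 25.75, Mat2a, which makes S-adenosylmethionine, had 8.66, and the spermidine synthase Srm had 4.37. Glycolysis had 1 of 22 (4.55%), Pgk1 with 7.55 at 964 bp from its start.

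Counts for genes of mitochondria, protein folding and turnover, and RNA splicing are read beside the 4.44% of all genes, which the intervals for mitochondrial import and the proteasome hold. Of 93 genes of oxidative phosphorylation, 10 had a site (10.8%, 5.28% to 18.9%), led by Cox5a with 44.37, Atp5g1 with 20.76, Ndufb5 with 16.68, Ndufaf4 with 14.85, Ndufs1 with 13.72 and Ndufa6 with 7.76. The best site had the E-box in 4 of these 10 genes. Of 45 genes of mitochondrial import and genome maintenance, 5 had one (11.1%, 3.71% to 24.1%), all with the E-box. They were the translocase subunits Tomm5 with 33.71, Timm9 with 33.25 and Tomm20 with 6.77, the prohibitin gene Phb with 3.41, and Ndufaf4. Of 23 cytosolic chaperone genes, 5 had one (21.7%, 7.46% to 43.7%), namely Cct8 with 44.46, Hsp90ab1 with 19.62, Hsp90aa1 with 17.76, Hspa8 with 8.98 and Tcp1 with 6.61. The proteasome had 4 of 48 (8.33%, 2.32% to 19.98%), with Psmd13 at 9.56, Psmb3 at 7.85, Psma4 at 4.08 and Psmb10 at 3.45. RNA splicing factors had 9 of 66 (13.6%, 6.43% to 24.3%), led by Srsf6 with 57.54, Hnrnpa1 with 54.69, U2af2 with 17.23, Prpf3 with 7.5, Hnrnpc with 7.46 and Snrpa with 5.61. The splicing count was 3 with an E2f3 exclusion of 1 kb, 3 among sites at or above the list's median score, and 2 with Myc lists of equal length.

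Genes of crypt and villus cells were both represented. Their counts are read beside the 4.44% of all genes, which the intervals for the secretory and immune lists hold. Of 27 Wnt and crypt stem cell genes, 5 had a site (18.5%, 6.30% to 38.1%), 4 of them with the E-box. Hopx, a marker of reserve stem cells, had 22.39 and Cdca7 had 9.50. Rnf43 and Znrf3, paired ubiquitin ligases that remove Wnt receptors, had 8.52 and 6.42, and Lrig1, a stem cell marker that restrains growth factor receptors, had 7.14. Of 25 villus enterocyte genes, 5 had a site (20%, 6.83% to 40.7%), and none of the 25 had an E2f3 promoter site in any library. They were Mttp, which loads lipid onto lipoproteins, with 70.32 at the site it shares with Rg9mtd2, the digestive enzyme gene Mgam with 18.87, the fatty acid binding protein gene Fabp2 with 8.67, the water channel gene Aqp8 with 8.59 and the triglyceride enzyme gene Dgat2 with 5.28. Of 24 secretory lineage genes 0 had a site, which allows a share of up to 14.2%. Of 21 immune cell genes 2 had one (9.52%, 1.175% to 30.4%), Cd14 with 9.90 and Itgax with 2.83, both without the E-box and both shared with control crypt. Of 1087 olfactory receptor genes 5 had one (0.460%), Olfr574, Olfr1423, Olfr921, Olfr750 and Olfr1256 with scores of 2.09 to 9.89, all without the E-box and all shared with control crypt.

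Cell cycle lists are shaped by the choice, because most of these genes have an E2f3 promoter site. Such a site was present at 45 of 49 DNA replication genes and 41 of 44 genes of G2/M and mitosis, so their counts of E2f3-free sites say nothing about Myc. Most genes of several other lists had an E2f3 promoter site too, beside 24.1% of all genes, so the choice shaped those counts. They included RNA splicing (47 of 66), nucleotide and one-carbon synthesis (26 of 40), polyamine (8 of 12) and circadian clock genes (13 of 20). Of the 25 villus enterocyte genes, 0 had such a site. None of the 49 replication genes had an E2f3-free Myc promoter site, while 6 had a Myc site with E2f3. Of the mitotic genes 3 had one (6.82%, 1.43% to 18.7%), and each of these sites lay within 1 kb of the start of another gene too. Aurka, a mitotic kinase gene, shared its site of 56.71 with Cstf1, Kif20a had 21.61 and Hmmr had 2.08. The list of the E2F family and pocket proteins also holds other genes, such as Ccne2, cyclin E2. Of its 27 genes, 2 had an E2f3-free site (7.41%, 0.91% to 24.3%), namely Tfdp1, the E2F partner DP1, with 12.69 and Ccne2 with 9.27. Of 23 genes of the p53 pathway and apoptosis, Trp53 with 9.67 and Sesn1 with 3.55 had one (8.70%, 1.07% to 28.0%), both with the E-box. The intervals for the mitotic, E2F family and p53 lists all hold the 4.44% of all genes.

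Of 13 genes of the Myc network itself, 2 had an E2f3-free site (15.4%, 1.92% to 45.4%), an interval that holds the 4.44% of all genes. Mlxip, a glucose-responsive partner of Mlx, had 22.38 with the E-box and a control crypt site, and Mga, the large Max partner that represses, had 13.56 with neither. Circadian clock E-box genes, whose regulators bind the same letters, had 1 of 20 (5%), Usp2 with 5.05. Lysosome genes, whose regulator Tfeb binds an E-box with other flanks, had 2 of 56 (3.57%), the proton pump subunit genes Atp6v1f with 4.54 and Atp6v1h with 2.78.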

How the data were processed

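ChIP-exo-seq libraries of 8 kinds, 1 per group, were analysed. Bowtie2 2.2.1, MACS2 2.0.10 and mm9 are named in the submitters' processing notes, and GEM events overlapping MACS2 peaks, from merged data with duplicates kept, in the deposited files' names. The sources used here do not give what was merged, the GEM version, thresholds or read numbers. The authors deposited 1-bp sites with a score from 2 to 999, of unstated meaning and scaling, used here only within a list. E-box centres showed that positions count from 0, so 1 was added. Starts (45974, of 22232 genes) and sequence came from GENCODE M1 and NCBIM37 (mm9), and 145 sites of the Rb-deficient crypt Myc list lay outside that reference. Sites within 250 bp were called shared. Motifs were searched within 50 bp. Flanks lay 2 kb to each side. The 943 sites and all gene lists were chosen with earlier results of these data known. Genes named are those of the 15 highest-scored sites, up to 6 per list (all, where a list had 8 or fewer), the highest-scored without E-box, those shared with villus, and those nearest each limit. No p-value was computed. Python 3.11.15, pandas 2.3.3, NumPy 2.4.6, SciPy 1.17.1 and matplotlib 3.10.9 were used, and the scripts were tested on simulated data.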

Additional observations from a re-analysis of the deposited data

How the results depend on the processing

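With 13 alternatives, 141 values were computed, of which 81 stayed within their interval or within 1.5 times the count and 60 moved. A reversal could be scored only for the difference in E-box share, for which 0 values reversed. The other values could not be scored as reversed. No paired analysis was possible because each group had 1 library. Depth is unknown, an uncalled site is not an absent one, and motif shares within 50 bp are tied to where the caller placed sites. The cause of each change below was not tested, other than where fewer sites entered.

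Keeping sites at or above the list's median score left 349 sites, 375 genes and 15 nucleolar genes, with the E-box at 49.0% of E2f3-free sites and 13.1% of sites with E2f3, and control crypt Myc at 39.3% and 81.2%; control villus Myc was at 0% of E2f3-free sites. With all Myc lists at the length of the shortest, 4119 sites, 66 sites, 76 genes, 4 nucleolar and 7 ribosomal protein genes were left. The E-box was then at 51.5% of E2f3-free sites and 8.05% with E2f3, CACGCG at 33.3% of E2f3-free sites, control crypt Myc at 0% and 53.02%, and Rb-deficient and control villus Myc at 3.03% and 0% of E2f3-free sites. With a promoter distance of 500 bp the E-box was at 20.5% of sites with E2f3, CACGCG at 20% of E2f3-free sites, and control crypt Myc at 30% and 60.5%. With 2 kb the E-box was at 40.6% and 11.4%, CACGCG at 13.5% of E2f3-free sites, and control crypt Myc at 42.5% and 80.3%. With an E2f3 exclusion of 100 bp, sites with E2f3 had the E-box at 11.5% and control crypt Myc at 77.8%. With 1 kb they had 23.8% and 61.8%, and the E-box difference was 18.8 points. The 250 bp motif window gave 52.4% and 23.7%, and a sharing distance of 1 kb gave control crypt Myc at 43.2% and 74.3%.

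The following were chosen after seeing the data. E-boxes at 51 to 250 bp only were beside 12.5% and 9.13%, a difference of 3.38 points. Without sites that have control crypt Myc, 611 sites, 655 genes and 12 ribosomal protein genes were left, with the E-box at 56.3% and 38.2%, a difference of 18.1 points, and CACGCG at 21.3% of E2f3-free sites. Excluding by Rb-deficient crypt E2f3 alone gave the E-box at 40.3%, control crypt Myc at 41.6%, Rb-deficient villus Myc at 1.08% and control villus Myc at 1.35%. Of 49 DNA replication genes, 1 had a site under that exclusion, under the 100 bp exclusion and under the 2 kb promoter distance.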
